A study of Mus musculus with 18 samples.

Results

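The comparison described here is the effect of losing Daxx in mouse embryonic stem cells grown in 2i medium minus the same effect in cells grown in serum. It used 12 of the study's 18 RNA sequencing libraries, 3 in each of 4 groups. All were made from E14Tg2A cells, a line of mouse embryonic stem cells, kept on gelatin in medium with LIF, the cytokine that sustains their self-renewal. The groups were wild type in serum with LIF, Daxx knockout in serum with LIF, wild type in 2i with LIF and vitamin C (100 µg/mL), and Daxx knockout in 2i with LIF and vitamin C. The 2i medium, called ground state in the labels, is free of serum and holds an inhibitor of GSK3 and an inhibitor of MEK. Both genotypes of a culture had the same medium, but the cultures differed in basal medium, serum, the inhibitors and vitamin C together, so no single ingredient can be told apart. The number of knockout clones and the deleted part of Daxx are not given in the sources used here. The other 6 libraries were from cells differentiated with retinoic acid (10 µM) without LIF, and they serve below as a readout that the comparison did not use.

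The members are all features tested: 17362 of 24505 gene entries and 863 of 906 repeat subfamilies. An effect is the log2 ratio of knockout to wild type within a culture, and the difference between cultures is the 2i effect minus the serum effect. Both were estimated with limma from log2 FPKM with a small pseudocount (FPKM is a read density per length of transcript), and a call is a Benjamini-Hochberg adjusted p below 0.05 over all genes or all repeats. Each ± after a difference is its standard error, with 3 libraries in a group. Features with a called difference were sorted by the cultures in which the effect itself was called. A feature was 2i only or serum only when 1 culture was called, and a sign change when both were called in opposite directions.

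Daxx is a chaperone that, with the remodeller ATRX, places the histone variant H3.3 at telomeres, pericentromeric repeats, silent endogenous retroviruses and some imprinted regions. It also binds PML nuclear bodies and represses transcription through bound cofactors. In serum, mouse embryonic stem cells carry a highly methylated genome and fluctuate in their expression of pluripotency factors. In 2i the MEK inhibitor blocks signalling from FGF receptors, and 2i with vitamin C lowers DNA methylation across the genome, since vitamin C is a cofactor of TET enzymes. Part of the silencing of retroviruses and germline genes rests on that methylation.

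Promoters of several genes that led the results are shown first, because the gene groups that differed most between cultures could be compared by their promoter letters. They come from RefSeq, build GRCm38.p6, each from 250 bases before to 50 bases after the start and written 5′ to 3′ in the direction of the gene, and 12614 of the 17362 genes had one. In the interferon-stimulated genes, capitals mark the letters GAAANNGAAA on either strand, a form of the interferon-stimulated response element that factors of the interferon response bind.
Cxcl10: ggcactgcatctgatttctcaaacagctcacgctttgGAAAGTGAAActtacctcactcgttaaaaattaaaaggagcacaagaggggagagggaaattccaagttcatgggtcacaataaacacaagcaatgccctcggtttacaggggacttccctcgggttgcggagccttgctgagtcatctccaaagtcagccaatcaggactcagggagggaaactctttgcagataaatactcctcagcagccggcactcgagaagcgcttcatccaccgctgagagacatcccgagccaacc
Gbp2: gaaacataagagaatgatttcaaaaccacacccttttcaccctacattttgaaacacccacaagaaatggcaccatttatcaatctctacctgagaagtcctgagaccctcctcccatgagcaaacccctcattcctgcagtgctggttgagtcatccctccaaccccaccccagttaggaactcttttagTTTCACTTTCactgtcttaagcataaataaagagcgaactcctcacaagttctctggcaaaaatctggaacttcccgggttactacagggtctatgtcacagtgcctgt
Gbp3: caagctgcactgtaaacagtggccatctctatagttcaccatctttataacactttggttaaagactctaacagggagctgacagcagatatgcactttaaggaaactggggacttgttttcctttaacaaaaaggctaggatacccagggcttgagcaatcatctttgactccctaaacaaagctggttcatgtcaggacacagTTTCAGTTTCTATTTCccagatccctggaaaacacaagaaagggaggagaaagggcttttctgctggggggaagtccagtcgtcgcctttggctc
Isg15: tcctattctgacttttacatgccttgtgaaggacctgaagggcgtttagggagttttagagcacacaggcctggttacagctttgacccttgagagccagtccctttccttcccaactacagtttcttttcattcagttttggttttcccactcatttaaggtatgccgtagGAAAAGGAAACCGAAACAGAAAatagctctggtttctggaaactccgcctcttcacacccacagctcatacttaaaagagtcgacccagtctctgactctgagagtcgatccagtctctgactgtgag
The Cxcl10 stretch is chr5:92348840-92349139 on the minus strand, Gbp2 is chr3:142620413-142620712 on the plus strand, Gbp3 is chr3:142559794-142560093 on the plus strand and Isg15 is chr4:156200769-156201068 on the minus strand. The match began 213 bases before the start in Cxcl10 and 59 bases before it in Gbp2. Gbp3 had 2 overlapping matches, and Isg15 had 3, between 78 and 66 bases before the start. These letters were in 364 of all 12614 promoters (2.89%) and in 19 of 29 promoters of the interferon-stimulated list (65.5%). They were in 80 of 1941 promoters of genes that rose in 2i only (4.12%).

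For the germ-cell genes of the X chromosome, capitals mark CpG pairs, the sites of DNA methylation.
Fmr1nb: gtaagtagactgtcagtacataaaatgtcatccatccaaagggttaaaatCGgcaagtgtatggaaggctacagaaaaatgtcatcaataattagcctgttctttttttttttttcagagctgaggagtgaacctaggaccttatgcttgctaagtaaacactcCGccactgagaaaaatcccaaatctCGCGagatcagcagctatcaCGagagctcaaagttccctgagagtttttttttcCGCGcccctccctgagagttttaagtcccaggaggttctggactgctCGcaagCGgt
Xlr3b: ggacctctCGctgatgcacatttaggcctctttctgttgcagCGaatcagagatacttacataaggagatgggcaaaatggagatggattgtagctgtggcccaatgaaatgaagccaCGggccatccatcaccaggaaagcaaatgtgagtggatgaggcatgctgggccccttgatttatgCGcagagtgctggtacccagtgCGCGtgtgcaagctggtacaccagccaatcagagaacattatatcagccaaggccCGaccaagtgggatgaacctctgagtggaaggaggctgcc
Fmr1nb is chrX:68761589-68761888 and Xlr3b is chrX:73191929-73192228, both on the plus strand. They hold 9 and 7 CpG pairs. The median was 8 over 21 promoters of the X-linked germ-cell list and 19 over all promoters. Methylation was not measured in the files used here.

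Daxx itself (mm9 chr17:34046390-34052535) was lower in every knockout library. It stood at 307, 319 and 353 FPKM in wild-type serum libraries and at 68.7, 72.2 and 73.7 in knockout serum libraries. In 2i it stood at 434, 423 and 402 in wild type and at 54.4, 56 and 57.6 in the knockout. The groups did not overlap in either culture. The effect was -2.18 in serum and -2.89 in 2i, a difference of -0.71 ± 0.12 (limma adjusted p = 0.000898). A gene-level value sums all exons, so RNA from exons that were kept is counted.

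Several features of the libraries touch the results. Library totals were 84.2 to 126.4 M units on the authors' scale. Within-group spread was wider in 2i, with a median SD of 0.221 in wild type and 0.274 in the knockout on the log2 scale, against 0.144 and 0.142 in serum. Replicate 3 of wild type in 2i and replicate 2 of the knockout in 2i stood apart from their group on the first principal components. The labels do not say that replicates came from separate cultures, so p-values reflect only how these libraries vary, which may be technical. The summed Y-linked genes Eif2s3y, Uty and Ddx3y were 220.6 ± 55.2 FPKM (SD, n = 3) in wild-type serum libraries. They were 2.48 ± 0.265 in knockout serum, 335.9 ± 19.7 in wild-type 2i and 205.0 ± 31.6 in knockout 2i. The knockout libraries of serum and of 2i thus differed in Y-linked RNA, and this cannot be told apart from culture. Differences were also spread unevenly over chromosomes, as described near the end.

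The Daxx effect was called for 3898 genes in serum (22.5%) and for 7291 in 2i (42.0%), and the difference between cultures for 6519. The difference was higher in 2i for 4778 genes (27.5% of those tested) and lower for 1741 (10.0%). A positive difference can come from a rise in 2i or a fall in serum. The 2i-only class held 2582 genes that rose in 2i (14.9%) and 933 that fell (5.37%). The serum-only class held 393 genes that rose in serum (2.26%) and 952 that fell (5.48%). Signs changed in 772 genes that fell in serum and rose in 2i (4.45%) and in 229 that rose in serum and fell in 2i (1.32%). A further 98 genes moved in the same direction in both cultures by unequal amounts, and 560 had a called difference with neither effect called. Both effects were called for 1798 genes, of which 1001 had opposite signs and 797 the same sign. At a difference of at least 2-fold, 2255 genes were 2i only, 729 serum only and 824 sign changes.

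The split of directions depended on scaling. On the values as deposited, the median difference over all genes was 0.31 on the log2 scale, from a median effect of -0.13 in serum and 0.18 in 2i. Under quantile normalization the median was -0.04 and the calls were 2523 higher and 2851 lower. Under median-ratio scaling the calls were 3456 higher and 3034 lower. Directions and effects below are those of the values as deposited, relative to 0, and were not centred on that median. Counts of lists are therefore given with their counts under these scalings, quantile normalization first. Class sizes also depended on the equal-spread assumption: with a weight for each group's spread, the 2i-only class shrank to 1527 up and 581 down, and the serum-only class grew to 639 up and 1656 down. Leaving out 1 library moved the serum-based classes by over 1.5 times. Serum-only rises were 246, 246, 256 and 226 genes without knockout serum replicate 1, knockout serum replicate 3, wild-type serum replicate 1 and wild-type serum replicate 3. Serum-only falls were 553, 615 and 634 without knockout serum replicate 1 and wild-type serum replicates 1 and 3. Sign changes that rose in 2i were 428 to 505 without knockout serum replicate 1 or 3 or any 1 wild-type serum library. Sign changes that fell in 2i were 117 to 151 without any 1 serum library or wild-type 2i replicate 2. Without both libraries that stood apart, serum-only rises and falls were 732 and 1658 and sign changes 1301 upward and 458 downward in 2i. Near the threshold, Hcfc1 (difference -0.49, adjusted p = 0.049966) and Hykk (0.86, 0.0499681) were inside it. Tmem190 (-1.78, 0.0500014) and Fitm1 (1.68, 0.0501045) were outside it.

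**Figure D1:**
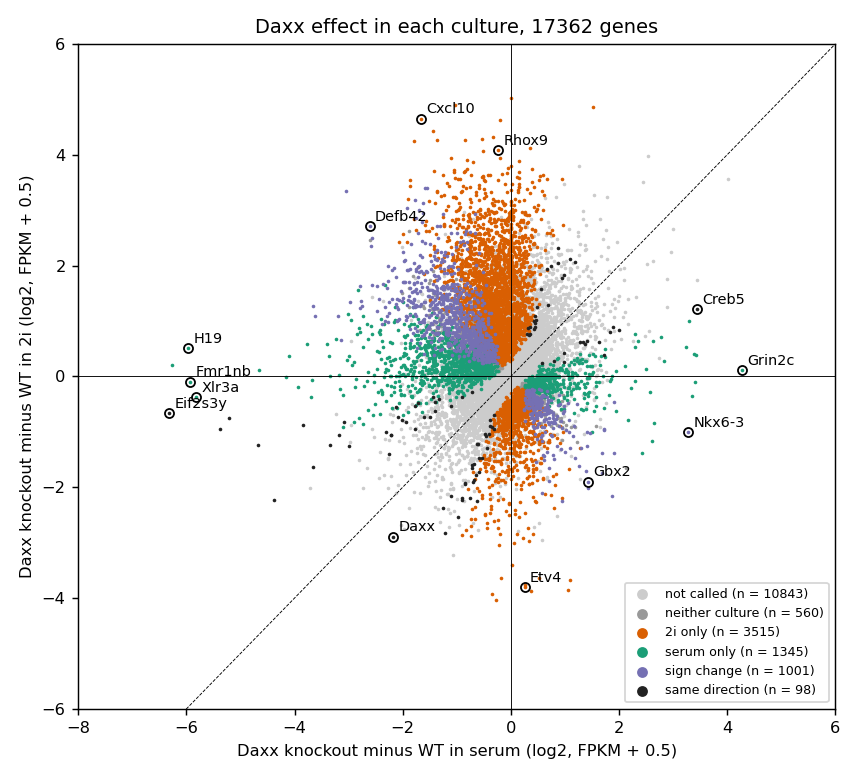
Each point is a gene, with the Daxx effect in serum on the x axis and in 2i on the y axis (log2 ratio of knockout to wild type), coloured by class; the dashed line marks equal effects. Genes of the 2i-only class spread along the y axis, H19, Fmr1nb and Grin2c lie near the x axis, and Gbx2 lies in the lower right quadrant, where the effect is 1.42 in serum and -1.90 in 2i.

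Genes that respond to interferon had higher Daxx effects in 2i than in serum. Of 43 interferon-stimulated genes tested, the difference was higher for 36 (83.7%) and lower for 0, against 27.5% and 10.0% of all genes. In 29 of the 36 the effect was called in 2i only, in 3 in serum only as a fall, and in 4 the sign changed. The list's median effect was -0.41 in serum and 2.52 in 2i. At an unadjusted p below 0.05 in limma, 39 were higher and 0 lower. The called count was 28 under quantile normalization and 32 under median-ratio scaling.

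Cxcl10 (mm9 chr5:92775665-92777915), a chemokine that draws T cells, had the largest difference of the 2i-only class. It stood at 2.82, 2.39 and 1.67 FPKM in wild-type serum, 0, 0.868 and 0.473 in knockout serum, 2.09, 2.99 and 0 in wild-type 2i and 31.1, 65.5 and 33.8 in knockout 2i. It was at most 2.99 FPKM in the other 9 libraries and above 31 FPKM in the 3 knockout 2i libraries. The effect was -1.66 in serum (adjusted p = 0.0845) and 4.65 in 2i, a difference of 6.31 ± 0.91 (adjusted p = 0.000476). Gbp2 (mm9 chr3:142283627-142300972), a GTPase that coats vacuoles of intracellular pathogens, stood at 31.9, 40.7 and 7.68 FPKM in wild-type serum and 4.06, 11.2 and 11.6 in knockout serum. In 2i it stood at 20.7, 19.9 and 1.08 in wild type and 128, 229 and 163 in the knockout, so the genotypes separated in 2i and overlapped in serum. Its difference was 5.62 ± 1.27 (adjusted p = 0.00555). The related Gbp2b and Gbp3 had differences of 5.88 ± 1.23 and 5.29 ± 1.20. Isg15, a ubiquitin-like modifier, had a difference of 4.71 ± 1.53, Ifit1, which binds foreign RNA caps, 4.30 ± 1.14, and Ifih1, the sensor MDA5, 3.97 ± 0.94. Wild-type 2i replicate 3 was low for this list, with Gbp2 at 1.08 FPKM, and without that library the differences were 5.45 for Cxcl10 and 4.38 for Gbp2, both still called.

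Genes of MHC class I presentation moved with them. The difference was higher for 19 of 20 members tested (95%) and lower for 0, against 27.5% and 10.0% of all genes. The counts were the same at an unadjusted p below 0.05 in limma, and 19 were higher under both other scalings. It was a 2i-only rise for 15 members and a sign change for 4. Calr, a chaperone of the endoplasmic reticulum, was the member not called. Psmb8 (mm9 chr17:34335140-34338399), a subunit of the immunoproteasome, stood at 16.8, 17.6 and 6.39 FPKM in wild-type serum and 1.72, 4.3 and 4.33 in knockout serum. The 2i values were 10.3, 12.7 and 0.335 in wild type and 80.8, 111 and 88.1 in the knockout. All 3 knockout 2i libraries exceeded 80 FPKM and no other library reached 18. The difference was 6.04 ± 1.19 (adjusted p = 0.00271), and 4.76 without wild-type 2i replicate 3. B2m, the light chain of class I molecules, had a difference of 4.03 ± 0.37, and H2-T22 one of 4.78 ± 0.67. The class Ib entries H2-Q7 (mm9 chr17:35576100-35580718) and H2-Q9 (mm9 chr17:35576112-35580715) overlap almost fully on the same strand. Their values therefore rest on the same stretch of the genome and are not 2 separate results. Both entries fell in serum (-1.55 and -1.60) and rose in 2i (3.40 and 3.39).

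Among sensors of cytosolic nucleic acid, 7 of 13 were higher (53.85%) and 1 lower (7.69%), against 27.5% and 10.0% of all genes. These counts were 3 and 2 under quantile normalization and 5 and 3 under median-ratio scaling. Aim2, a sensor of cytosolic DNA, fell in serum (-2.47) and had no called effect in 2i (0.46, adjusted p = 0.0712).

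**Figure D2:**
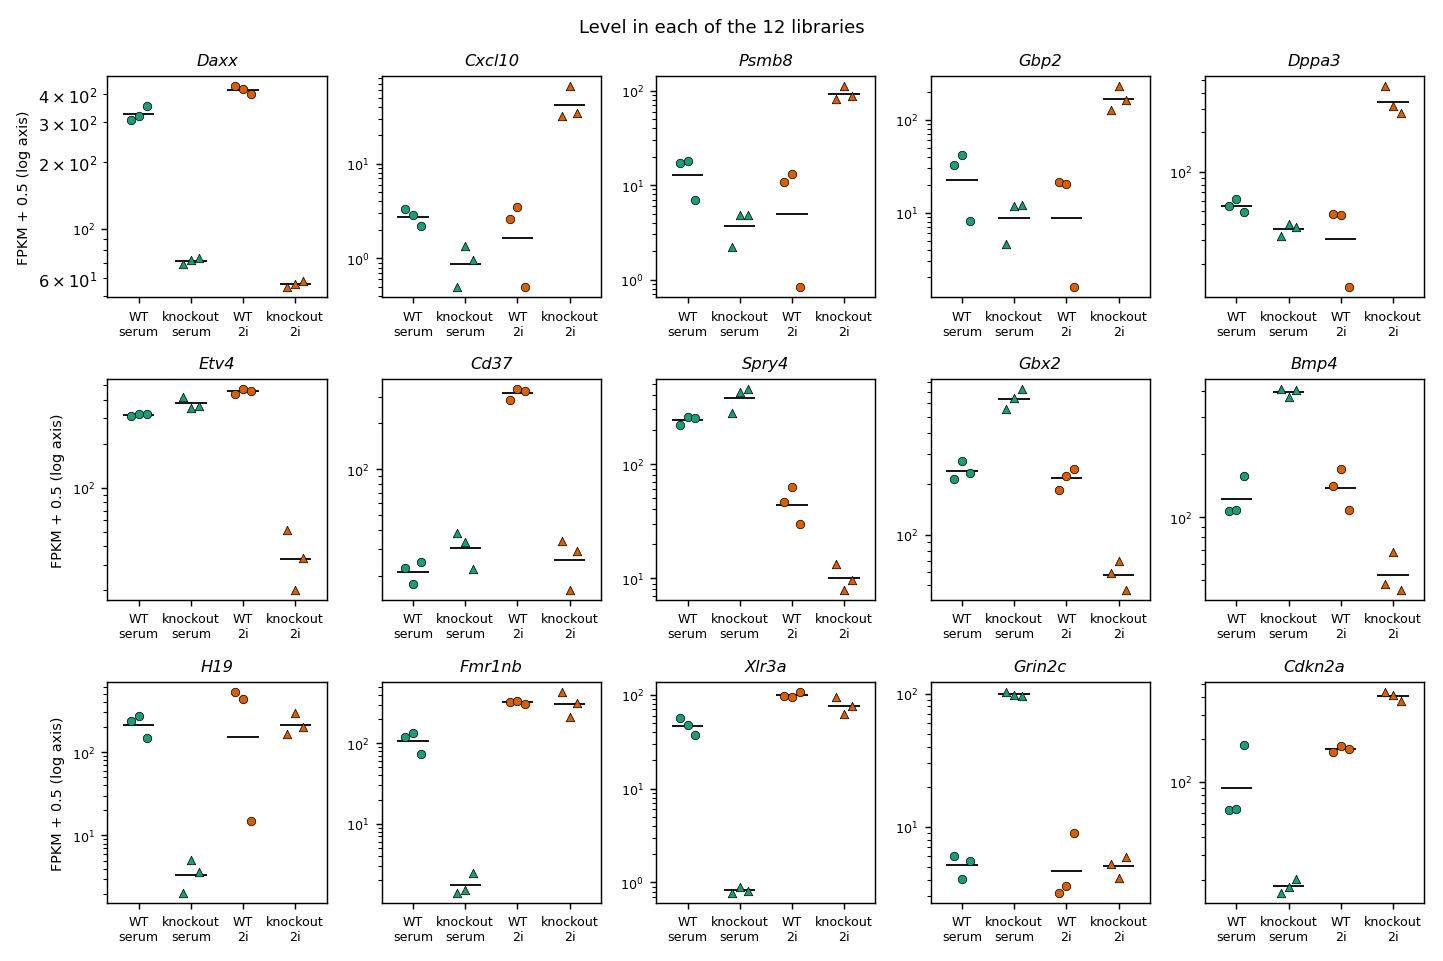
FPKM plus 0.5 on a log axis for 15 genes in the 12 libraries; circles are wild type and triangles knockout, green is serum and orange is 2i, and bars are geometric means of the 3 libraries. Knockout 2i triangles stand alone at the top for Cxcl10 and Psmb8 and alone at the bottom for Etv4, while knockout serum triangles stand alone at the bottom for Fmr1nb and Xlr3a and at the top for Grin2c.

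Feedback regulators and targets of FGF-ERK signalling had lower Daxx effects in 2i than in serum. ERK is the kinase that MEK activates, and the 2i medium of both genotypes holds a MEK inhibitor. Of 20 members, the difference was lower for 10 (50%) and higher for 5 (25%), against 10.0% and 27.5% of all genes. It was lower for 11 under both other scalings. Etv4 (mm9 chr11:101631062-101646624), an ETS factor induced by FGF, stood at 309, 319 and 318 FPKM in wild-type serum, 417, 352 and 363 in knockout serum and 434, 472 and 461 in wild-type 2i. In the knockout 2i libraries it stood at 50.8, 19.7 and 32.9. No library of the other 3 groups was below 300. The difference was -4.06 ± 0.34 (adjusted p = 2.49e-05). The ERK phosphatase Dusp6 stood at 154, 179 and 177 FPKM in wild-type serum and 188, 253 and 278 in knockout serum. In 2i it stood at 80.3, 91.8 and 67.5 in wild type and 16.9, 38.4 and 14.9 in the knockout, so wild type was lower in 2i than in serum and the knockout in 2i was lowest. Its difference was -2.34 ± 0.41. The ETS factor Etv1 had a difference of -2.65 ± 0.34, and the FGF antagonists Spry4 and Spry2 had -2.76 ± 0.39 and -1.37 ± 0.34. Immediate early genes of the list went the other way: the AP-1 subunit Fos had a difference of 2.62 ± 0.36, the zinc finger factor Egr1 1.28 ± 0.35, and Ier3 4.15 ± 0.45. Ier3 fell in serum (-2.78) and rose in 2i (1.37). Myc, which drives growth, rose in serum (2.29) and had an effect of -0.08 in 2i that was not called.

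Naive pluripotency genes also had lower effects in 2i than in serum. The difference was lower for 15 of 28 (53.6%) and higher for 3 (10.7%), against 10.0% and 27.5% of all genes. The lower count was 11 under quantile normalization, 17 under median-ratio scaling and 9 without knockout serum replicate 1. The list's median effect was 0.36 in serum and -0.36 in 2i. Gbx2 (mm9 chr1:91824537-91827751), a homeobox factor downstream of LIF, stood at 212, 274 and 232 FPKM in wild-type serum and 555, 644 and 729 in knockout serum. Wild-type 2i libraries had 183, 223 and 245 and knockout 2i libraries 58.7, 69.1 and 46.6. It rose in serum and fell in 2i with no overlap in either culture, a difference of -3.32 ± 0.23 (adjusted p = 1.01e-05). Nr0b1, an orphan receptor that binds Oct4, also rose in serum (1.41) and fell in 2i (-1.0), as did Sall4 (0.69 and -0.47) and Gdf3 (0.62 and -1.51). Pou5f1, the gene of Oct4, had a difference of -1.41 ± 0.41, Esrrb -1.21 ± 0.28 and Zfp42 -1.0 ± 0.32. Sox2 (-0.57 ± 0.29, adjusted p = 0.148) and Nanog (-0.51 ± 0.19, adjusted p = 0.0578) did not pass. Dppa3, a factor of the early embryo and germ cells that opposes methylation, was the exception at the top, with a difference of 4.06 ± 0.55. The summed level of 8 stem cell markers was 28095 to 28480 FPKM in wild-type serum, 30290 to 36189 in knockout serum, 23096 to 24697 in wild-type 2i and 9682 to 19625 in knockout 2i. In bulk libraries, fewer cells of a type and less RNA per cell cannot be told apart.

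Among signalling ligands, Bmp4 (mm9 chr14:47003200-47010344), which acts with LIF on self-renewal in serum, stood at 106, 108 and 156 FPKM in wild-type serum and 406, 372 and 403 in knockout serum. Levels in 2i were 140.1, 169 and 108 in wild type and 47.5, 67.5 and 44.6 in the knockout. It was highest in the knockout in serum and lowest in the knockout in 2i, a difference of -3.07 ± 0.28 (adjusted p = 3.35e-05). Bmp2 had the opposite difference, 2.97 ± 0.58. Of 17 Nodal and BMP members, 5 had a lower difference (29.4%) and 2 a higher one (11.8%), against 10.0% and 27.5% of all genes, and 6 and 7 were lower under the other scalings. Of 24 Wnt target and caudal genes, 8 were lower (33.3%) and 6 higher (25%, near the share over all genes), with 9 and 8 lower and 3 and 4 higher under the other scalings. Nkx1-2, a homeobox factor of the caudal epiblast, fell in 2i only, with a difference of -4.25 ± 0.59, and Evx1, a factor of the primitive streak, rose in serum only, with -3.77 ± 0.81.

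The other leading falls in 2i were not members of a common list. Cd37 (mm9 chr7:52489002-52494209), a tetraspanin best known from lymphocytes, stood at 21.9, 17 and 23.9 FPKM in wild-type serum and 37.6, 32.8 and 21.8 in knockout serum. It stood at 283, 336 and 329 in wild-type 2i and 33.4, 15.6 and 28.6 in knockout 2i, so only wild-type 2i was high. The difference was -4.17 ± 0.38 (adjusted p = 3.35e-05). Apol6, of the apolipoprotein L family, had a difference of -4.90 ± 0.53.

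Markers of trophoblast and endoderm had higher effects in 2i than in serum. Of 20 trophoblast genes, 12 were higher (60%) and 1 lower (5%), against 27.5% and 10.0% of all genes. In this list 8 members rose in 2i only and 4 changed sign, and 12 were higher under both other scalings. Krt18, a keratin of simple epithelia, had a difference of 5.13 ± 0.78, Krt19 4.61 ± 0.80 and Hand1, a factor of giant cells, 4.43 ± 0.66. Wild-type 2i replicate 3 was low for these genes too. It stood at 9.80 FPKM for Krt18, 4.82 for Krt19 and 0.161 for Hand1. Wild-type 2i replicates 1 and 2 stood at 47.9 and 62.8 FPKM for Krt18, 23.8 and 20.8 for Krt19 and 1.31 and 1.90 for Hand1. Of 25 endoderm genes, 16 were higher (64%) and 0 lower, against the same 27.5% and 10.0%. At an unadjusted p below 0.05 in limma, 21 were higher and 0 lower. The called count was 12 under quantile normalization and 16 under median-ratio scaling. In this list 6 members fell in serum only, 7 changed sign and 2 rose in 2i only. Dab2, an endocytic adaptor of primitive endoderm, fell in serum (-1.92) and rose in 2i (3.05), with a difference of 4.97 ± 0.78. Its wild-type 2i libraries stood at 26.0, 27.3 and 3.71 FPKM. Srgn, a proteoglycan core protein, fell in serum (-3.67) and rose in 2i (1.27). Summed over 8 markers, trophoblast genes stood at 424 to 545 FPKM in wild-type 2i and 1077 to 1227 in knockout 2i. Summed endoderm markers stood at 138 to 160 FPKM in wild-type serum, 70.6 to 77.2 in knockout serum, 75.3 to 141 in wild-type 2i and 286 to 520 in knockout 2i. Elf5, a defining trophoblast factor, was under 1 FPKM in every group except knockout 2i. The part of other cell types in these results was not tested.

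Fibroblast, blood and neural lists were also counted. The difference was higher for 8 of 21 fibroblast genes (38.1%), 5 of 14 blood and endothelial genes (35.7%) and 4 of 25 neural genes (16%), against 27.5% of all genes. It was lower for 0, 1 and 2 of them, against 10.0% of all genes. Under quantile normalization 5, 3 and 2 were higher, and under median-ratio scaling 7, 5 and 3. Runx1 and Gata1, factors of blood formation, fell in serum (-1.35 and -1.55) and rose in 2i (2.50 and 1.89). Irx3, a homeobox factor of neural progenitors, fell in serum (-1.77) and rose in 2i (3.18). The neural count was 2 without knockout serum replicate 1 or 2. Summed fibroblast markers ranged from 26.0 to 97.2 FPKM in the serum groups, 21.2 to 111 in wild-type 2i and 72.3 to 413 in knockout 2i, and Dcn, Lum and Postn were under 1 FPKM in the serum groups. Summed blood and endothelial markers were lower in the knockout in both cultures, at 221 to 259 FPKM in wild-type serum and 114 to 143 in knockout serum, and at 545 to 583 in wild-type 2i and 284 to 378 in knockout 2i. Summed neural markers stood at 540 to 624 FPKM in wild-type serum, 534 to 552 in knockout serum, 522 to 659 in wild-type 2i and 255 to 1889 in knockout 2i, so the genotypes overlapped in both cultures.

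Genes that fell in serum only were led by an imprinted RNA and by germ-cell genes of the X chromosome. H19 (mm9 chr7:149761435-149764051), a maternally expressed non-coding RNA, stood at 238, 268 and 146 FPKM in wild-type serum and 1.55, 4.57 and 3.14 in knockout serum. In 2i medium, wild type had 527, 429 and 14.6 and the knockout 165, 298 and 197. The serum groups did not overlap, and in 2i wild-type replicate 3 was below every knockout library while replicates 1 and 2 were above them. The serum effect was -5.97 and the difference 6.48 ± 1.44 (adjusted p = 0.00513), or 4.82 without wild-type 2i replicate 3. Fmr1nb (mm9 chrX:66015014-66057735), a testis gene beside Fmr1, stood at 117, 135 and 73.5 FPKM in wild-type serum and 0.9, 1.01 and 1.95 in knockout serum. In 2i it stood at 327, 338 and 308 in wild type and 431, 208 and 311 in the knockout. It was nearly absent in knockout serum libraries and high in both genotypes in 2i, a difference of 5.84 ± 0.41 (adjusted p = 1.01e-05). Xlr3a (mm9 chrX:70331632-70342434) and Xlr3b, members of a family of near-identical genes whose reads can be split, had serum effects of -5.82 and -4.66 and 2i effects of -0.38 and 0.11. Efhc2, an X-linked gene of motile cilia, had a serum effect of -4.10 and a 2i effect of 0.37.

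Over the X-linked germ-cell list, 16 of 22 members were higher (72.7%) and 0 lower, against 27.5% and 10.0% of all genes. At an unadjusted p below 0.05 in limma, 18 were higher and 0 lower. Of the 16, 9 fell in serum only. The higher count was 11 under quantile normalization and 15 under median-ratio scaling. Of 45 genes that fell in serum only with a difference of at least 8-fold, 11 lay on the X chromosome (24.4%), against 10.0% of all 559 genes with a difference of that size. The Rhox homeobox cluster, also on the X and expressed in reproductive tissue, was counted apart. A higher difference was called for 9 of 10 members (90%, against 27.5% of all genes), with 7 under quantile normalization and 9 under median-ratio scaling. Rhox9 (mm9 chrX:35252274-35254947) stood at 22.1, 21.2 and 12.3 FPKM in wild-type serum and 14, 19.5 and 12.5 in knockout serum. The 2i values were 75.2, 95.2 and 14.7 in wild type and 1013, 585 and 910.4 in the knockout, so only knockout 2i libraries were high. The difference was 4.33 ± 0.77 (adjusted p = 0.00154). Rhox6 had a difference of 3.82 ± 0.72. Rhox genes are similar to each other, and reads can be split among them. Among meiotic and piRNA genes, 21 of 35 were higher (60%) and 1 lower (2.86%), against 27.5% and 10.0% of all genes. Under quantile normalization and median-ratio scaling, 18 and 20 were higher. Meioc, which prolongs meiotic prophase, fell in serum (-1.92) and rose in 2i (1.91), and Tex101, a testis surface protein, had a difference of 4.35 ± 1.15.

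Of 22 genes of the two-cell-like state, 6 had a higher difference and 0 a lower one (7 and 1 at an unadjusted p below 0.05 in limma), close to the share over all genes (27.5%). Under quantile normalization 4 were higher and 1 lower, and under median-ratio scaling 5 and 2. Pramel7 fell in serum (-2.80) and rose in 2i (1.63), whereas Pramel6 fell in serum (-3.39) with a 2i effect of 0.58 that was not called. Dux (0.23, adjusted p = 0.712) and the 5 Zscan4 genes tested, all markers of that state, had no called difference in limma's test. Of 43 imprinted genes, 16 were higher (37.2%) and 3 lower (6.98%), against 27.5% and 10.0% of all genes. These counts were 11 and 6 under quantile normalization and 14 and 4 under median-ratio scaling. Sgce and Peg10, paternally expressed neighbours, had differences of 2.91 ± 0.34 and 2.54 ± 0.42. Without knockout 2i replicate 2, the lower count was 5.

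Glycolytic and hypoxia-response genes with a called difference mostly fell in serum. Falls in serum only numbered 11 and sign changes 5. Of 30 members, 17 were higher (56.7%) and 2 lower (6.67%), against 27.5% and 10.0% of all genes. The list's median effect was -0.94 in serum and -0.02 in 2i, and the count was 13 and 14 under the other scalings. Ddit4, an inhibitor of mTORC1, had effects of -2.32 in serum and 1.01 in 2i. Ndrg1, a hypoxia marker, had effects of -2.08 and 1.21, and Eno2, an enolase, -2.38 and 0.64.

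**Figure D3:**
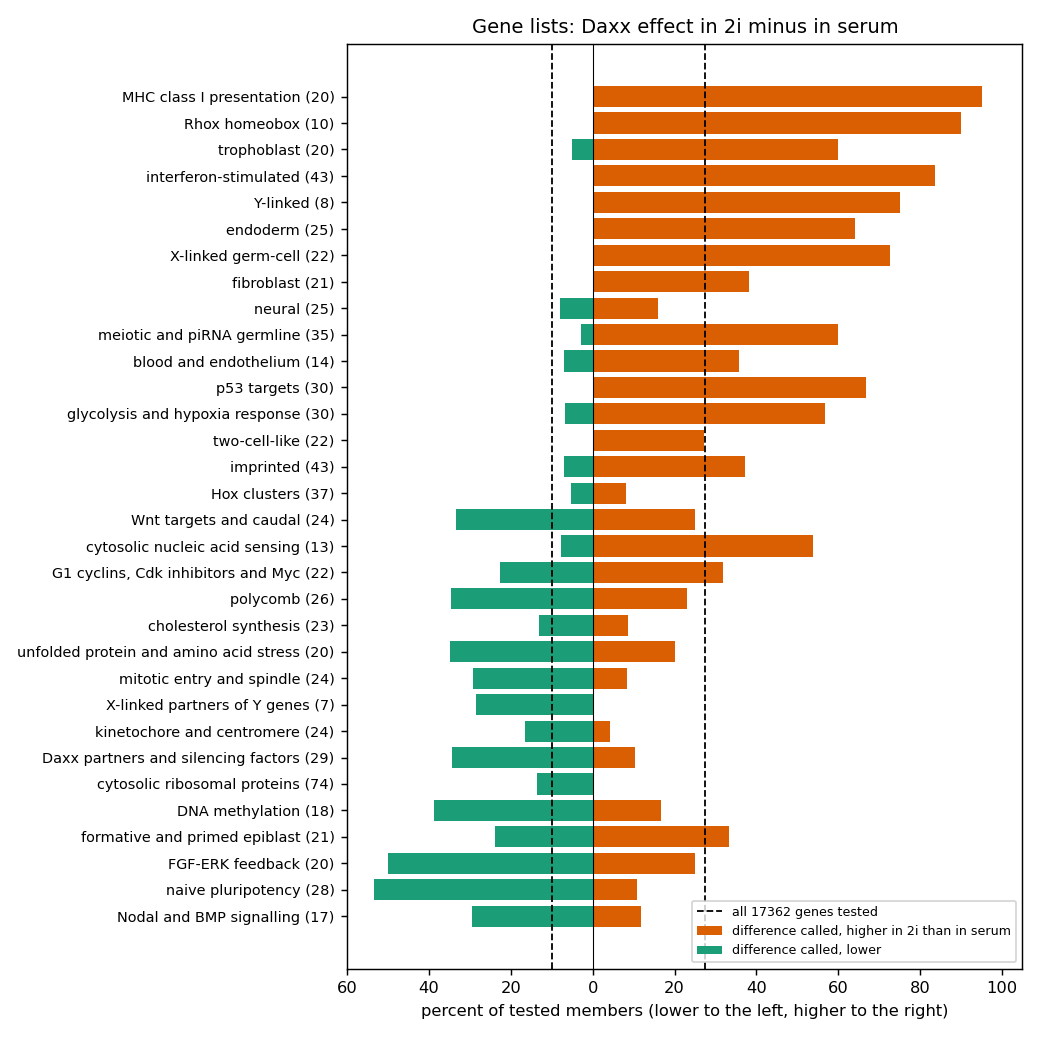
Percent of the tested members of each gene list with a called difference, higher or lower in 2i than in serum; dashed lines mark the shares over all 17362 genes (27.5% and 10.0%). MHC class I presentation (95% higher), Rhox (90%) and interferon-stimulated genes (83.7%) lead the higher side, and naive pluripotency (53.6%) and FGF-ERK feedback (50%) lead the lower side.

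Targets of p53 had higher effects in 2i than in serum. Of 30 p53 targets, 20 were higher (66.7%) and 0 lower, against 27.5% and 10.0% of all genes. At an unadjusted p below 0.05 in limma, 21 were higher and 1 lower. Rises in 2i only numbered 12 and sign changes 6. The counts were 19 higher and 1 lower under quantile normalization and 16 and 2 under median-ratio scaling. Fas, a death receptor, had a difference of 3.69 ± 0.73, Cdkn1a, the p21 inhibitor, 2.16 ± 0.22, and Mdm2, the ligase that degrades p53, 1.17 ± 0.25. Cdkn2a (mm9 chr4:88920377-88940523), the gene of p16 and p19Arf, stood at 62.5, 63.6 and 182 FPKM in wild-type serum and 15.7, 17.2 and 19.9 in knockout serum. Wild-type 2i libraries had 163, 178 and 169 and knockout 2i libraries 435, 413 and 374. It fell in serum and rose in 2i with no overlap in either culture, a difference of 3.58 ± 0.44 (adjusted p = 0.000204). Its neighbour Cdkn2b did likewise (-1.99 and 1.70).

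Genes of mitosis and the kinetochore had more lower than higher differences. Of 24 mitotic entry and spindle genes, 7 were lower (29.2%) and 2 higher (8.33%), against 10.0% and 27.5% of all genes. The lower count was 4 under quantile normalization, where 2851 of all 17362 genes were lower. It was 15 under median-ratio scaling, where 3034 of all genes were lower. Leaving out 1 serum library or wild-type 2i replicate 1 or 2 gave 2 to 4. Kif11, the kinesin that separates spindle poles, fell in 2i (-1.01) and had a serum effect of -0.04, a difference of -0.97 ± 0.16. Bub1b, of the spindle checkpoint, had a difference of -0.67 ± 0.13. The cell cycle homology region TTTGAA, which the DREAM complex binds, was on either strand in 15 of 19 promoters of this list (78.9%) and in 12.2% of all promoters. The Kif11 promoter (chr19:37376132-37376431, GRCm38.p6, plus strand) holds 1 match, in capitals, 19 bases before the start.
Kif11: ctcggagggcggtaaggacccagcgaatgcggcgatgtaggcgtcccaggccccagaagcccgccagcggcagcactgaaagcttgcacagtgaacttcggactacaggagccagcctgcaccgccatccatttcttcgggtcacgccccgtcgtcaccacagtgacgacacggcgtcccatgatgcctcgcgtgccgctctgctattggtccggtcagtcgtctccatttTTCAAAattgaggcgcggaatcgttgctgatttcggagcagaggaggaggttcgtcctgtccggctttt
Of 24 kinetochore and centromere genes, 4 were lower (16.7%) and 1 higher (4.17%), against 10.0% and 27.5% of all genes. The lower count was 8 and 13 under the other scalings and 11 without knockout 2i replicate 1. Incenp, a subunit of the Aurora B complex, had a difference of -0.74 ± 0.19. Hjurp, the chaperone of the centromeric histone CENP-A, rose in serum (0.57) and had a 2i effect of -0.14. Cytosolic ribosomal protein genes had a lower difference in 10 of 74 and a higher one in 0 (18 and 0 at an unadjusted p below 0.05 in limma). The lower share of 13.5% was near the 10.0% of all genes, whereas no member was higher, against 27.5% of all genes. The list's median difference was -0.31, against 0.31 over all genes. The lower count was 20 and 26 under the other scalings. Their count moved from 4 without knockout serum replicate 1 to 31 without knockout 2i replicate 1. It was 6 without knockout serum replicate 2 or wild-type serum replicate 1, and 5 without wild-type serum replicate 2 or wild-type 2i replicate 2.

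Genes that rose in serum only had mostly smaller differences, with 7 of 393 at 8-fold or more. Grin2c (mm9 chr11:115110483-115128557), an NMDA receptor subunit, stood at 5.48, 3.56 and 5.04 FPKM in wild-type serum and 102, 97.9 and 96.2 in knockout serum. Levels in 2i were 2.69, 3.08 and 8.44 in wild type and 4.79, 3.62 and 5.47 in the knockout. Knockout serum libraries were about 100 FPKM and every other library was below 9. The difference was -4.16 ± 0.49 (adjusted p = 0.00016). Slc23a1, a vitamin C transporter, rose in serum (3.35) and had a 2i effect of -0.35. Fam159b and the orphan receptor Gpr83 rose in serum by 3.40 and 3.43.

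Beyond the genes above, the rule of size named among sign changes Defb42, a defensin, with effects of -2.61 in serum and 2.71 in 2i, and Nxf7, an X-linked member of the RNA export factor family, with -2.56 and 2.50. In the other direction, Nkx6-3 (mm9 chr8:24263743-24269420), a homeobox factor of the stomach, stood at 15.5, 16 and 14.8 FPKM in wild-type serum and 170.0, 145 and 149 in knockout serum. In 2i medium, wild type had 1.62, 2.05 and 2.42 and the knockout 1.15, 0.346 and 0.887. The serum groups were far apart, and the fall in 2i was between low values. The difference was -4.29 ± 0.37 (adjusted p = 2.84e-05). The homeobox factor Tlx2 had effects of 1.87 and -2.15, the muscle phosphatase-like gene Dusp27 1.69 and -1.74, and Islr2 0.94 and -2.25.

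Of the 98 genes called in the same direction with unequal effects, Creb5, a CREB family factor, rose by 3.44 in serum and 1.21 in 2i, and Cryl1, a crystallin-like dehydrogenase, by 0.86 and 2.32. The Y-linked Eif2s3y, Ddx3y and Uty fell by far more in serum (-6.32, -5.22 and -5.39) than in 2i (-0.66, -0.75 and -0.94).

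Among partners of Daxx and silencing factors, 10 of 29 were lower (34.5%) and 3 higher (10.3%), against 10.0% and 27.5% of all genes. Under the other scalings, 9 and 16 were lower. Pml, which builds the nuclear bodies that hold Daxx, rose in serum (0.67) and fell in 2i (-0.37). Smarcad1, a remodeller needed to silence retroviruses, rose in serum (0.40) and fell in 2i (-0.74). Sp100, an interferon-inducible component of the same bodies, rose in 2i (2.96). Atrx had a difference of -0.35 ± 0.25 (adjusted p = 0.283). In the DNA methylation list, 7 of 18 were lower (38.9%, against 10.0% of all genes) and 3 higher (16.7%, against 27.5%), with 5 and 8 lower under the other scalings. Tet2, an oxidase of methylcytosine, rose in serum (0.49) and fell in 2i (-0.75), and Uhrf2 moved the opposite way (-0.75 and 0.78). Dnmt3a, a de novo methyltransferase, rose in 2i (0.80). Polycomb genes had 9 of 26 lower (34.6%) and 6 higher (23.1%), against 10.0% and 27.5% of all genes. The lower count was 6 and 9 under the other scalings, where 2851 and 3034 of all 17362 genes were lower. It was 5 without knockout serum replicate 2 or 3. Phc1 fell in 2i (-1.64), and Pcgf5 fell in serum (-1.19). Of 23 cholesterol synthesis genes, 2 were higher (8.70%) and 3 lower (13.0%, near the share over all genes), with 2 and 4 lower under the other scalings.

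The difference had a regional component. The median difference was 0.70 on the X chromosome, 0.61 on chromosome 1 and 0.58 on chromosome 14, against 0.12 on chromosome 6 and 0.05 on chromosome 19. On chromosome 1, 38.7% of genes had a higher difference and 6.19% a lower one, and on chromosome 19 the shares were 21.5% and 16.6%. In all 3 knockout 2i libraries chromosome 1 was 0.50 to 0.54 above the autosomal median relative to wild type, and 0.21 to 0.26 above it in knockout serum libraries. Chromosome 19 was 0.31 to 0.39 below in knockout 2i and 0.05 to 0.09 below in knockout serum. Copy number was not measured in the files used here, and its part was not tested. With each chromosome's median removed in each library, 3176 genes were higher and 3252 lower. This also removed the shift over all genes, whose median difference went from 0.31 to 0.03. The change in these counts is therefore not that of the regional part alone. In that setting 19 MHC class I and 32 interferon-stimulated genes were still higher, and 18 naive pluripotency genes were lower.

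**Figure D4:**
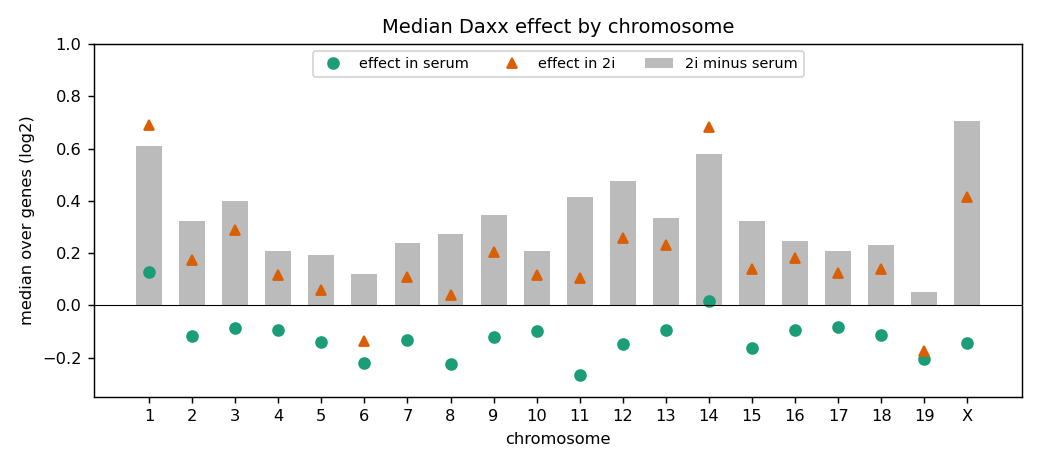
Median Daxx effect of each chromosome's genes in serum (circles) and in 2i (triangles) and the median difference (bars), on the log2 scale, for chromosomes 1 to 19 and X. The bars are highest for X (0.70), 1 (0.61) and 14 (0.58) and lowest for 19 (0.05), and the triangles for chromosomes 6 and 19 are below 0.

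Repeats are counted by subfamily, over all copies, and their FPKM are shares of a separate read set that made up 11.3 ± 0.817% (SD, n = 3) of the gene set in wild-type serum and 16.3 ± 2.78% in knockout 2i. Of 863 subfamilies the difference was higher for 99 (11.5%) and lower for 23 (2.67%). The 2i-only class held 55 that rose (6.37%) and 14 that fell (1.62%), and the serum-only class 4 that rose (0.463%) and 20 that fell (2.32%). Signs changed upward in 2i for 4 (0.463%) and downward for 3 (0.348%). Under quantile normalization 28 were higher and 51 lower, and under median-ratio scaling 36 and 67. Rescaled to the gene read set, 75 were higher and 11 lower. The direction of the whole set thus depended on scaling and is not fixed by these data. Leaving out single libraries gave 47 to 127 higher and 13 to 32 lower. The higher count was 54 and 60 without knockout serum replicates 1 and 3, 47 and 64 without wild-type serum replicates 1 and 2, and 58 and 62 without wild-type 2i replicates 1 and 2. The lower count was 13 without knockout serum replicate 3, 14 without wild-type serum replicate 1 and 15 without wild-type 2i replicate 1 or 2. LTR elements made up 450 of the 863 subfamilies tested and had 68 of the 99 higher and 17 of the 23 lower calls.

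Families of LTR retroviruses moved in opposite directions. ETn and MusD elements, which are mobile in mice, had a lower difference in 4 of 5 subfamilies (80%, against 2.67% of all repeats). The lower count was also 4 under quantile normalization and median-ratio scaling, and ETnERV3-int had a higher difference. MMETn-int (1965 copies) stood at 545, 558 and 502 FPKM in wild-type serum and 614, 663 and 674 in knockout serum. In 2i it stood at 417, 425 and 349 in wild type and 121, 127 and 125 in the knockout. Knockout 2i libraries were the lowest of all 12 and close to each other. The difference was -1.95 ± 0.15 (adjusted p = 8.60e-05). ETnERV-int and the LTR RLTRETN_Mm had differences of -1.58 ± 0.20 and -1.57 ± 0.15.

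MMERVK10C and RLTR10 elements went up. A higher difference was called for 6 of 9 (66.7%) and a lower one for 0, against 11.5% and 2.67% of all repeats. At an unadjusted p below 0.05 in limma, 7 were higher and 0 lower. The called count was 4 under both other scalings. MMERVK10C-int (3437 copies) stood at 4.02, 4.3 and 3.55 FPKM in wild-type serum and 4.81, 6.95 and 7.46 in knockout serum. The 2i values were 6.45, 6.91 and 5.5 in wild type and 25.4, 26.8 and 30.4 in the knockout. It rose in both cultures and more in 2i (0.61 and 2.05), a difference of 1.43 ± 0.22 (adjusted p = 0.00377). The LTRs RLTR10C and RLTR10B2 had differences of 1.58 ± 0.23 and 1.52 ± 0.18.

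IAP elements, a family with young mobile copies, had a higher difference in 8 of 16 (50%, against 11.5% of all repeats). Only 1 was higher under quantile normalization and 3 under median-ratio scaling. The count was 3 without knockout serum replicate 1 and 5 without knockout serum replicate 3, wild-type serum replicate 1 or 2, or wild-type 2i replicate 1 or 3. IAPLTR1_Mm (1511 copies) stood at 11.2, 11.6 and 13.3 FPKM in wild-type serum and 18, 19.8 and 20.9 in knockout serum. Wild-type 2i libraries had 58.8, 63.7 and 47 and knockout 2i libraries 221, 151 and 164. It was higher in 2i than in serum in wild type too. The effects were 0.68 and 1.64 and the difference 0.97 ± 0.22 (adjusted p = 0.0204), with an adjusted p of 0.0544 without knockout serum replicate 1 and 0.119 under quantile normalization. The internal sequence IAPEz-int did not pass (0.69 ± 0.21, adjusted p = 0.0538).

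Sign changes among repeats were few. RLTR45-int (2294 copies) stood at 6.42, 6.38 and 5.59 FPKM in wild-type serum and 9.93, 9.97 and 10.7 in knockout serum. Levels in 2i were 229, 217 and 217 in wild type and 93.2, 68.6 and 101 in the knockout. Its level depended mainly on culture, and within each culture the genotypes did not overlap. The difference was -2.04 ± 0.19 (adjusted p = 0.000177). RLTR4_MM-int, related to murine leukaemia virus, stood at 24.4, 26.6 and 24.4 FPKM in wild-type serum and 59.8, 59 and 60 in knockout serum. In 2i medium, wild type had 48.1, 47.5 and 56.2 and the knockout 41.1, 38.5 and 42.6, a difference of -1.54 ± 0.12. Its rise in serum was the larger of the 2 effects (1.23 and -0.31).

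L1Md_T (23234 copies), a young LINE subfamily, stood at 2.38, 2.81 and 2.17 FPKM in wild-type serum and 7.14, 6.43 and 6.77 in knockout serum. The 2i libraries averaged 16.3 ± 4.79 FPKM in wild type and 19.7 ± 3.82 in the knockout (SD, n = 3). It rose in serum (1.31) and the genotypes overlapped in 2i (0.29). The difference of -1.02 ± 0.30 was barely called (adjusted p = 0.0467), and was not called under quantile normalization (0.0729) or when any single library was left out (0.0672 to 0.108), except replicate 3 of wild type in 2i (0.0083) or of the knockout in 2i (0.0282). It was the only called member of 8 young L1 subfamilies. None of 7 MERVL and MT2, 5 satellite and 19 B1 and B2 SINE subfamilies had a called difference in limma's test, and at an unadjusted p below 0.05 there were 1, 2 and 1. Under quantile normalization and median-ratio scaling 1 MERVL and MT2 subfamily was lower, and under median-ratio scaling 2 satellites were. Of 94 MaLR subfamilies, 10 were higher, close to the 11.5% of all repeats, and 2 were higher under quantile normalization and 3 under median-ratio scaling. The count was 3 to 6 without knockout serum replicate 1 or 3, any 1 wild-type serum library or wild-type 2i replicate 1 or 2.

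**Figure D5:**
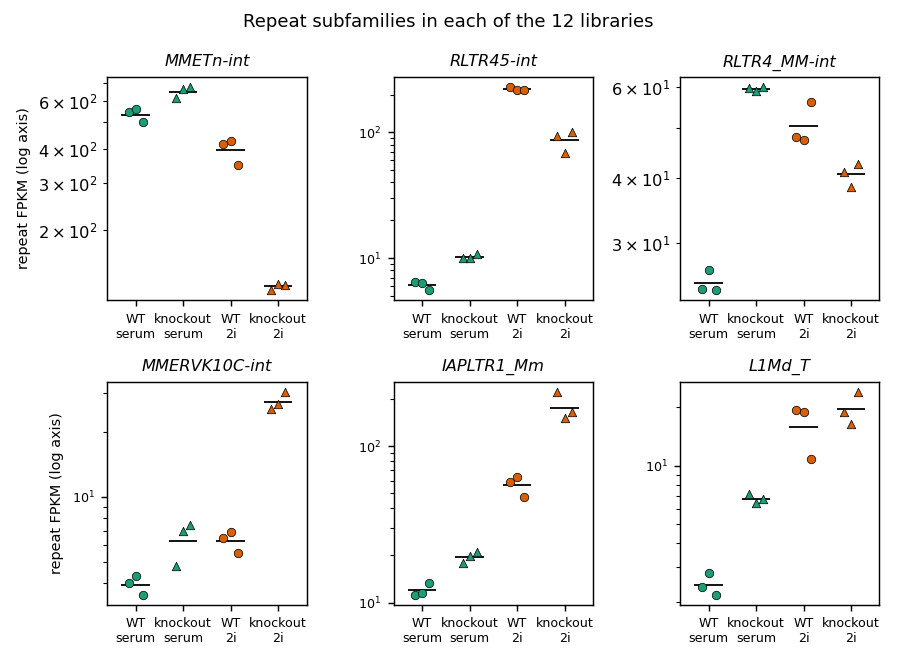
FPKM on a log axis for 6 repeat subfamilies in the 12 libraries; circles are wild type and triangles knockout, green is serum and orange is 2i, and bars are geometric means. MMETn-int is lowest in knockout 2i (121 to 127 FPKM), MMERVK10C-int is highest there (25.4 to 30.4 FPKM), and L1Md_T overlaps between genotypes in 2i.

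Cells differentiated with retinoic acid gave a readout that the comparison did not use. These cells came from serum with LIF, and 3 wild-type and 3 knockout libraries were fitted on their own. Of 15171 genes tested, the Daxx effect was higher for 88 (0.580%) and lower for 342 (2.25%). Genes of the serum-only falls were lower in retinoic acid for 53 of 831 and higher for 0 (249 and 23 at an unadjusted p below 0.05 in limma). Sign changes that fell in serum were lower for 41 of 709 and higher for 0 (202 and 14 unadjusted). The shares called lower, 6.38% and 5.78%, exceeded the 2.25% of all genes. Genes that rose in 2i only were lower for 67 of 2102 (3.19%) and higher for 13 (0.62%), against 2.25% and 0.580% of all genes. Rises in serum only were higher for 10 of 367 (2.7%) and lower for 4 (1.09%). Sign changes that rose in serum were higher for 5 of 222 (2.25%) and lower for 0. Falls in 2i only were higher for 6 of 863 (0.70%) and lower for 11 (1.3%). H19 was 6810.3 ± 1227 FPKM (SD, n = 3) in wild type and 32.2 ± 15.2 in the knockout, an effect of -7.82 (limma adjusted p = 0.000109). Fmr1nb was 46.2 ± 24.1 in wild type and 0.242 ± 0.264 in the knockout, an effect of -5.92 (adjusted p = 0.000423). Xlr3a and Xlr3b had effects of -5.44 and -4.23. These genes were thus called lower in retinoic acid and in serum and were not called in 2i. Y-linked genes moved with them: in retinoic acid Eif2s3y was 93 ± 4.4 FPKM in wild type and 0.311 ± 0.338 in the knockout, an effect of -6.92, and Uty and Ddx3y had effects of -5.46 and -4.60. The knockout libraries of serum and retinoic acid therefore shared the loss of Y-linked RNA, the retinoic acid cells came from serum culture, and the part of this in the recurrence was not tested. Cxcl10 had an effect of -1.58 (adjusted p = 0.0664) and Grin2c one of -0.17 (adjusted p = 0.753), neither called.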

How the data were processed

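RNA was measured by sequencing in 18 libraries, and 12 entered this comparison. Per the labels' protocols, polyadenylated RNA was enriched with oligo-dT beads and depleted of ribosomal RNA; whether reads kept their strand is not stated in the labels or headers, so a gene cannot be separated from an overlapping or antisense partner. The authors deposited FPKM per gene and per repeat subfamily, and the submitters' processing notes name Bowtie2 2.2.6, HOMER 4.8 and limma with build mm9. The deposited FPKM are not on the usual scale: low values are whole multiples of a unit (100% within 0.1 of a whole number), and the totals fit 10 M, which makes each value about 10 times the usual FPKM. That factor is inferred. The authors also deposited a table of log2 values, which equals quantile-normalized log2 FPKM plus 1, and it served as an alternative.

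Genes at 1 FPKM or more in at least 3 of the libraries were tested with limma 3.58.1 (R 4.3.3) on log2(FPKM + 0.5), as 4 group means with an intensity trend and 8 residual degrees of freedom. Fold changes on that scale understate changes of low genes. Repeats used a pseudocount of 0.4966 and 6 libraries above 0. Scripts were tested on simulated data. No 2 libraries were identical. Replicate numbers did not pair the samples across the 4 groups: 7 of 18 same-numbered pairs had deviations correlated above 0.1 (-0.16 to 0.336). Between wild-type serum and wild-type 2i all 3 were above it (0.155, 0.181 and 0.336), and between no other 2 groups were all 3.

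Named genes were, per class and direction, the 5 largest differences with no overlap between genotypes in each called culture and a mean of at least 5 FPKM in the highest group, 2 for the same-direction class, Daxx, and up to 3 called members of each of 32 lists (3 per class for repeats, 10 lists). Names of predicted, Riken, LOC, microRNA and small nucleolar entries were passed over. Other list members named were chosen after their values were seen, as were Hcfc1, Hykk, Tmem190 and Fitm1. The members and lists were chosen with earlier results of these data known. Alternatives covered the pseudocount, filter, scaling, weights, libraries and replicate block. Some genes named by the rule are not reported here.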

Additional observations from a re-analysis of the deposited data

Results flagged for a closer look

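Features whose Daxx effect was called in both cultures with opposite signs, by a test of the difference itself in limma, were listed for the genes and repeats named by the rule of size. Genes that fell in serum and rose in 2i had differences of 5.33 for Defb42, 5.07 for Nxf7, 4.99 for H2-Q9, 4.97 for Dab2 and 4.95 for Irx3 on the log2 scale. Genes that rose in serum and fell in 2i had differences of -4.29 for Nkx6-3, -4.03 for Tlx2, -3.43 for Dusp27, -3.32 for Gbx2 and -3.19 for Islr2. Among repeats, the differences were 1.16 for RMER17A-int, 1.06 for MER90 and 0.93 for MER91A, which rose in 2i. They were -2.04 for RLTR45-int, -1.54 for RLTR4_MM-int and -1.28 for MURVY-LTR, which fell in 2i. In all 16, the 3 libraries of each genotype did not overlap in either culture, which the rule of choice required. Groups of 3 libraries were too small for a test of outlying values, but fits without each single library were run and are described below. Irx3 stood at 22.9, 94.8 and 25.9 FPKM in knockout 2i, and Dab2 at 26.0, 27.3 and 3.71 in wild-type 2i.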

How the results depend on the processing

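Class sizes moved with scaling and with assumptions about spread, while named features kept their direction. None of 2844 alternative values of the 110 named genes reversed and 58 lost the call. Of 756 values of the 32 named repeats, 0 reversed and 108 lost it. In all settings run, 98 of 110 genes and 18 of 32 repeats kept their call. Most named features were picked for large called differences in these same libraries, so their kept direction is no independent check. Class membership was less stable. Under quantile normalization, 1201 of 2582 2i-only rises, 308 of 952 serum-only falls and 294 of 772 sign changes upward in 2i kept their class. Quantile normalization gave 2523 higher and 2851 lower differences, 2i-only classes of 1467 up and 1632 down, 475 serum-only falls and sign changes of 329 up and 363 down in 2i. The authors' log2 table gave 2558 and 2868, 1512 and 1632, 466, and 330 and 364 for the same quantities. Median-ratio scaling gave 3034 lower, 1565 2i-only falls, 664 serum-only rises and sign changes of 504 and 477. Removing chromosome medians gave 3176 higher, 3252 lower, 1646 2i-only falls, 697 and 622 serum-only rises and falls and sign changes of 487 and 564. Weights per group gave 1527 and 581 in 2i only and 639 and 1656 in serum only. Without both wild-type 2i replicate 3 and knockout 2i replicate 2, serum-only rises and falls were 732 and 1658 and sign changes 1301 and 458. A stricter rule asked for an effect of at least 2-fold in the called culture and only a small effect in the other. Under it, 2i only held 1139 and 250 and serum only 99 and 360. Leaving out single libraries gave 3680 to 4917 higher, 1309 to 2167 lower, 1892 to 2636 and 760 to 1144 in 2i only, 226 to 553 and 553 to 1256 in serum only, and 428 to 952 and 117 to 330 sign changes. It gave a Daxx difference of -0.77 to -0.67. With the replicate block the sign changes were 762 and 212 and the 2i-only classes 2605 and 932, and no count of genes moved by over 1.5 times. Numbers did not pair the samples across the 4 groups, and not every sample correlated best with its own number. For repeats, a minimum level of 10 pseudocounts gave 41 higher, quantile normalization 28 higher and 51 lower, and median-ratio scaling 36 and 67. Rescaling to the gene reads gave 75 higher and 11 lower, all 18 libraries 152 and 37, and leaving out both libraries 36 lower. Single libraries left out gave 47 to 127 higher and 13 to 32 lower, and the replicate block 85 and 20. Autosomal genes only, an alternative chosen after seeing the data, moved no count by over 1.5 times. Depth limits genes below a few FPKM, where 1 read is a large share of the value.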

Other observations

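Repeats other than LTR elements were counted as well. Of 153 DNA transposon subfamilies, 19 had a higher difference, and of 120 LINE subfamilies 8 were higher and 4 lower, against 11.5% higher and 2.67% lower over all repeats. Ricksha_c fell in serum only, with a difference of 2.23, and MER99 (2.04), L1M3f (1.99) and MLT1J1-int (2.24) rose in 2i only. Reads from the transcripts of host genes cannot be told apart from those of these families.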
